A study of Mus musculus with 6 samples.

Results

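The mitochondrial chromosome of the mouse was followed in islet RNA as 37 genes, chosen as every row of the expression tables placed on chromosome MT, of 41710 genes in all. By biotype these are 13 protein genes, 2 ribosomal RNA (rRNA) genes and 22 transfer RNA (tRNA) genes. Islets came from 3 Trpm7R/R mice and 3 WT littermates, with 1 library per mouse. Trpm7R/R mice are homozygous for a point mutation that inactivates the kinase of TRPM7, a channel protein fused to a kinase, and carry it in every cell of the body. WT mice carry the unmutated allele on both chromosomes and come from the same heterozygous breeding. All mice have a C57BL/6 background and received a high-fat diet (HFD) with 45% of its energy from fat from 8 weeks of age for 16 weeks, so that they were about 24 weeks old. Isolated islets were kept in culture medium, lysed and sequenced with a low-input RNA kit that does not keep the strand of a transcript. The sources used here do not give the sex of each mouse. The libraries are numbered 4, 6 and 8 for Trpm7R/R and 1, 2 and 3 for WT.

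Mitochondrial DNA is a small circle that is transcribed from both strands into long precursors. tRNA genes lie between most of the protein and rRNA genes, and their excision from the precursor releases the RNAs on either side. The proteins made are core subunits of the respiratory chain and of ATP synthase, whose other subunits come from nuclear genes. In β cells, ATP from this chain couples glucose metabolism to insulin release.

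The genes stand close together. Of 36 neighbouring pairs in the deposited coordinates, 9 overlap, 12 touch with no base between them and 14 are 1 to 5 bases apart. The exception is the pair mt-Tn and mt-Tc, 32 bases apart, where an origin of replication is known to lie. A tRNA gene lies between the members of 10 of the 14 neighbouring pairs of protein or rRNA genes. The plus strand of the reference holds 28 genes, and the minus strand holds mt-Nd6 and 8 tRNA genes.

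Overlaps between protein genes are shown because a read in shared bases belongs to either gene, and the sources used here do not say how such reads were assigned. Sequences are from GENCODE vM21 transcripts of GRCm38, on which all 37 genes have the position and strand given in the files. mt-Atp8 and mt-Atp6, both subunits of ATP synthase, share 43 bases in different reading frames, which is 21.1% of mt-Atp8. Capitals mark the shared bases, at the end of mt-Atp8 (chrMT:7910-7969, plus strand), the start of mt-Atp6 (chrMT:7927-7986, plus strand), the end of mt-Nd4l before mt-Nd4 (chrMT:10144-10173, plus strand), and the ends of mt-Nd5 (chrMT:13536-13565, plus strand) and mt-Nd6 (chrMT:13552-13581, minus strand), which run towards each other.
End of mt-Atp8: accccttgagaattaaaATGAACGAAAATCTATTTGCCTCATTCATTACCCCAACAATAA
Start of mt-Atp6: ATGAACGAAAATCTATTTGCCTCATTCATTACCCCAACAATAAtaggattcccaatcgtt
End of mt-Nd4l: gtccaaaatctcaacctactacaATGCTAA
End of mt-Nd5: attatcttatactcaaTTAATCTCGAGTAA
End of mt-Nd6: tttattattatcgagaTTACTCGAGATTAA

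Of the 13 protein genes, 3 end in an incomplete stop codon, a single T past the last whole codon. In mammalian mitochondria such a codon is known to be completed by the added poly(A) tail. The ends of mt-Co3 (chrMT:9361-9390), mt-Nd4 (chrMT:11515-11544) and mt-Cytb (chrMT:15259-15288), all on the plus strand, are shown with that T in capitals.
End of mt-Co3: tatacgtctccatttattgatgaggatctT
End of mt-Nd4: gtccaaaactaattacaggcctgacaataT
End of mt-Cytb: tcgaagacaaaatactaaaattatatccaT

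The libraries held between 17213285 and 20307909 mapped reads, and mitochondrial exon reads were 6.45% to 11.9% of all exon reads. In all libraries together 762686 reads fell in mitochondrial exons, and 7 of them mapped to more than 1 place, although the nuclear genome is known to hold copies of mitochondrial DNA. Between 75.7% and 84.2% of all gene reads fell in introns, which the mitochondrial genes lack, and no mitochondrial read crossed an exon junction. Reads from mitochondrial RNA and any reads from mitochondrial DNA therefore cannot be told apart in these counts. This limit holds for all densities and fold changes below. Reads crossing exon junctions of named nuclear protein genes were 0.0495%, 0.0333% and 0.0492% of mapped reads in Trpm7R/R libraries 4, 6 and 8, against 0.156%, 0.192% and 0.0897% in WT libraries 1, 2 and 3. Of these shares, every Trpm7R/R value was below every WT value. The summed level of 5 beta cell markers was 230.2 to 532 RPKM in Trpm7R/R libraries and 744 to 1847 RPKM in WT libraries, where RPKM is reads per kilobase of exon and 1000000 mapped reads. Markers of the other endocrine cells did not overlap either, with 19.2 to 43.2 RPKM in Trpm7R/R and 73.9 to 192 RPKM in WT for 4 alpha cell markers, 2.10 to 6.36 RPKM in Trpm7R/R and 7.22 to 15.4 RPKM in WT for 3 delta cell markers, and 46.8 to 96.4 RPKM in Trpm7R/R and 269 to 459 RPKM in WT for 2 PP cell markers. The 10 acinar markers summed to 3.09 to 3.87 RPKM in Trpm7R/R libraries and 3.49 to 6.11 RPKM in WT libraries, which overlapped. Sums of duct, endothelial, macrophage and leukocyte, stellate and fibroblast, and red blood cell markers overlapped too, the highest being 1.59 RPKM. Read density on the Y chromosome, as a multiple of the autosomal density, was 0.502, 0.0693 and 0.0450 in Trpm7R/R libraries 4, 6 and 8, against 0.763, 0.679 and 0.737 in WT libraries 1, 2 and 3. Libraries 6 and 8 thus had almost no Y-linked reads. In those 2 libraries genotype and this feature cannot be told apart. The part of the exon junction shares and of the marker levels in the results that follow was not tested.

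Protein genes took 0.543%, 0.453% and 0.420% of mapped reads in Trpm7R/R libraries 4, 6 and 8, against 0.394%, 0.775% and 0.642% in WT libraries 1, 2 and 3. Counting error is small beside these differences, since the 95% Wilson interval for WT library 1 was 0.391% to 0.397%. The lowest and the highest libraries were both WT, so the genotypes overlapped. The means were 0.472% ± 0.0640 in Trpm7R/R and 0.604% ± 0.193 in WT (SD, n = 3 each), a difference that did not pass a 2-sided exact permutation test (p = 0.4, smallest possible p = 0.1). The rRNA genes took 0.153%, 0.129% and 0.133% in Trpm7R/R libraries, against 0.116%, 0.209% and 0.182% in WT libraries (exact permutation p = 0.4). Their reads followed those of the protein genes within each library. There were 0.282, 0.286 and 0.316 rRNA gene reads per protein gene read in Trpm7R/R libraries, against 0.294, 0.270 and 0.284 in WT libraries (exact permutation p = 0.5). In bulk islets, fewer cells of a type and less RNA per cell cannot be told apart. The p-values measure the spread between these mice.

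**Figure D1:**
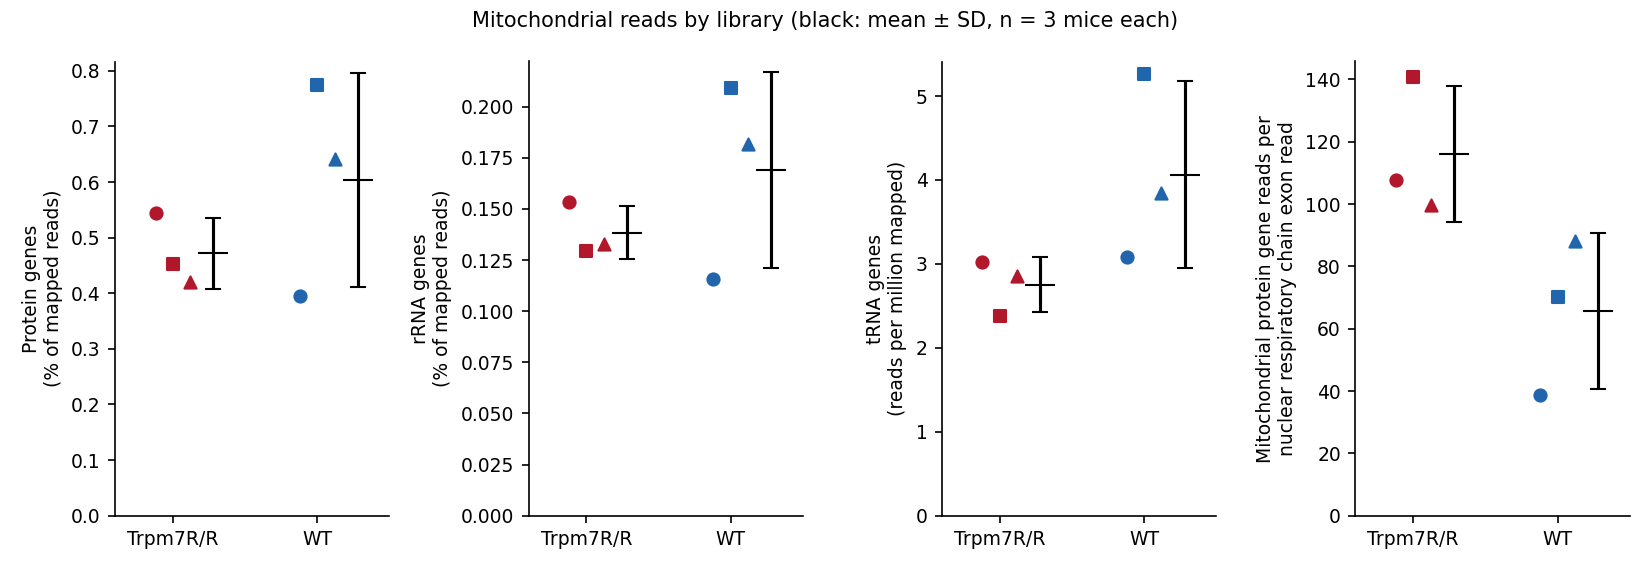
Share of mapped reads in mitochondrial protein, rRNA and tRNA genes, and mitochondrial protein gene reads per exon read of nuclear respiratory chain genes, with 1 symbol per library and the mean ± SD of 3 mice in black. Protein gene shares overlapped (0.420% to 0.543% in Trpm7R/R, 0.394% to 0.775% in WT), whereas the exon read ratio ran from 99.7 to 141 in Trpm7R/R and from 38.8 to 88.2 in WT, an order that was lost when intron reads were added.

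Per exon length, the protein and rRNA genes lay far above the background and the tRNA genes much nearer to it. The median protein gene reached 452, 366 and 314 RPKM in Trpm7R/R libraries 4, 6 and 8, against 340.4, 671 and 528 RPKM in WT libraries 1, 2 and 3. These densities are 1298 to 2815 times the background, the median intron read density of 5181 long nuclear genes (0.213 to 0.274 RPKM). The 22 tRNA genes as a whole had 1.59 to 3.51 RPKM, or 7.35 to 14.7 times the background. They take up 1501 of the 15441 exon bases on the chromosome but held 377 of its 762686 reads.

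**Figure D2:**
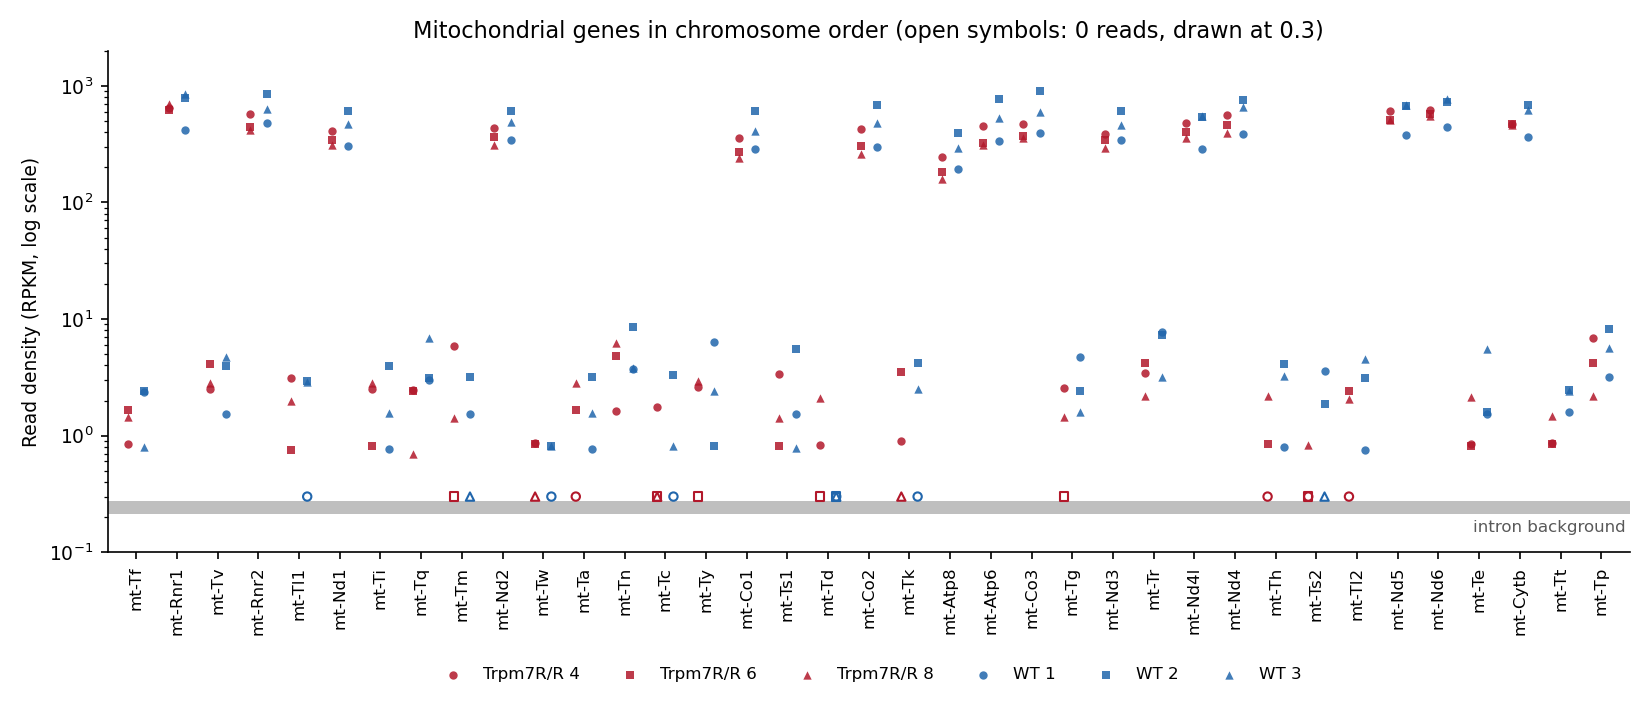
Read density (RPKM, log scale) of the 37 mitochondrial genes in chromosome order, with Trpm7R/R libraries drawn left of WT libraries and the intron background as a grey band. Protein and rRNA genes sat between 158 and 896 RPKM in every library, and tRNA genes between 0 and 8.50 RPKM.

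The protein genes differed little from each other in density. In each library the highest of the 13 was 2.26 to 3.48 times the lowest, and 1.54 to 2.27 times without mt-Atp8. The coefficient of variation over the 13 genes was 22.3%, 27.9% and 31.6% in Trpm7R/R libraries and 18.7%, 18.5% and 23.8% in WT libraries. Reads followed length (Pearson r between 0.899 and 0.974 over the 13 genes within a library), while density depended on it less (r between 0.295 and 0.391). These correlations are across genes of 1 library and describe it only.

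Each gene's density was divided by that of the library's median protein gene to set the order. mt-Rnr1, the rRNA of the small mitochondrial ribosomal subunit, came highest at 1.56 ± 0.387 (SD over 6 libraries). It was followed by mt-Nd6 at 1.43 ± 0.229 and mt-Nd5 at 1.30 ± 0.220, both membrane subunits of complex I, the NADH dehydrogenase. mt-Rnr2, the rRNA of the large subunit, stood at 1.28 ± 0.0764. Next were mt-Nd4 of complex I at 1.22, mt-Cytb, the cytochrome b of complex III, at 1.18, and mt-Co3, a subunit of the cytochrome c oxidase (complex IV), at 1.14. The middle of the order held mt-Atp6 at 1.00 and the complex I subunit genes mt-Nd4l at 1.00, mt-Nd2 at 0.966, mt-Nd1 at 0.920 and mt-Nd3 at 0.919. The catalytic complex IV subunit genes mt-Co2 and mt-Co1 followed at 0.904 and 0.805, and mt-Atp8 was lowest at 0.544 ± 0.0357.

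Only 5 neighbouring pairs of this order kept 1 direction in all 6 libraries. These were mt-Nd6 over mt-Nd5, mt-Co3 over mt-Atp6, mt-Nd2 over mt-Nd1, mt-Co2 over mt-Co1 and mt-Co1 over mt-Atp8. Other neighbours did not differ beyond their spread. mt-Nd6, the protein gene of the minus strand, had 1.04 to 1.17 times the density of mt-Nd5 in the 6 libraries. Since the kit does not keep strand, reads from an mt-Nd6 transcript and from the opposite strand of the same bases cannot be told apart. The lowest place of mt-Atp8 includes the 21.1% of its length shared with mt-Atp6, where the assignment of reads is uncertain.

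**Figure D3:**
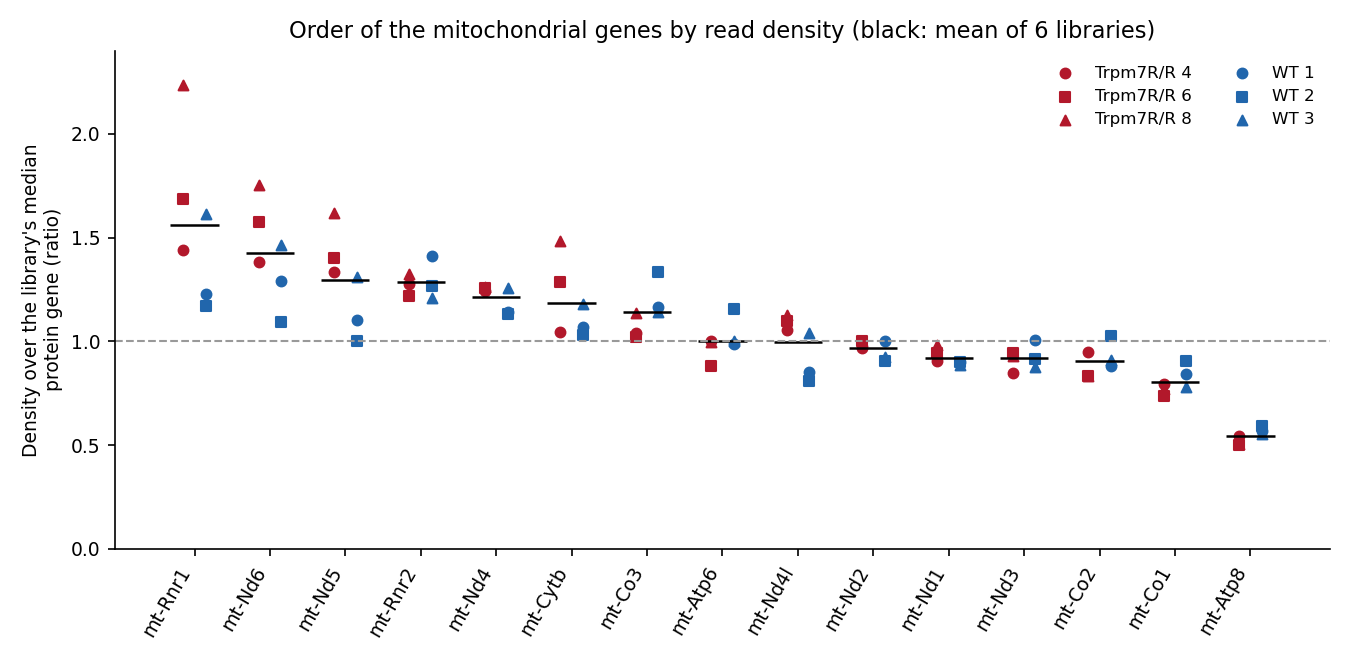
Density of the 15 protein and rRNA genes divided by that of the median protein gene of the same library, in order of the mean over 6 libraries (black lines), with Trpm7R/R libraries drawn left of WT libraries. mt-Rnr1 ranged from 1.17 to 2.23, the widest spread of the 15 genes.

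The comparison of genotypes asked whether loss of the TRPM7 kinase changed expression in islets on an HFD. No mitochondrial gene was called with TMM scaling. The quasi-likelihood test of edgeR, fitted over 11674 genes, kept all 15 protein and rRNA genes and none of the 22 tRNA genes. With the thresholds of the study (2-fold or more, Benjamini-Hochberg adjusted p no higher than 0.05) it called 0 of the 15 higher (0% of all genes tested) and 0 lower (0.0257% of all genes tested). At an unadjusted p under 0.05, 0 of the 15 were higher (1.14% of all genes) and 0 were lower (4.57% of all genes). DESeq2, limma-voom and the other tests of edgeR (likelihood ratio, exact) likewise called 0. Scaling edgeR to ribosomal protein genes, described next, called mt-Rnr1, mt-Nd4l, mt-Nd5 and mt-Nd6 higher, but all 15 genes lay below the median of all genes in that fit. The share of all genes called there is not given here, so these calls are no result about the genes called. In normalized counts none of these 15 genes lay below every WT library (6.84% of all genes did) or above every WT library (3.64% did).

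All 15 log2 fold changes were negative under TMM scaling (49.3% of all genes tested had a negative one), and all 15 were positive when libraries were scaled to 83 ribosomal protein genes, which moved the median of all genes to 1.34 on the log2 scale. Relative to the median of all genes, the 15 lay between -0.63 and -0.03 with TMM scaling and between -0.56 and -0.04 with ribosomal scaling. The median of the 13 protein genes was -0.34 with TMM scaling, against 0.01 over all genes tested. WT library 1 had the lowest density of the WT libraries for 15 of 15 genes, and WT library 2 had the highest for 11 of 15. Without WT library 2 the median was -0.11 and 11 of the 15 were negative, and without WT library 3 it was -0.29 with 11 negative. Without WT library 1 it was -0.50 with 15 negative, and without Trpm7R/R library 8 it was -0.20 with 13 negative. With a term in the fit for the 2 libraries with almost no Y-linked reads, the 15 log2 fold changes lay between -0.52 and -0.04. Both of those libraries were Trpm7R/R, so that fit set the 1 remaining Trpm7R/R library against the 3 WT libraries. Its values are therefore no adjusted comparison of 3 mice per genotype.

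The most negative values belonged to complex IV and ATP synthase genes, although differences between genes were not tested. mt-Co3 had 471, 373 and 357 RPKM in Trpm7R/R libraries 4, 6 and 8, against 396, 896 and 602 RPKM in WT libraries 1, 2 and 3. Trpm7R/R library 4 lay above WT library 1, and its log2 fold change was -0.62 (SE 0.33, edgeR adjusted p = 1.00). mt-Atp8 had 246, 183 and 158 RPKM in Trpm7R/R libraries, against 193, 396 and 293 RPKM in WT libraries. Its log2 fold change was -0.56 (SE 0.30, edgeR adjusted p = 1.00). limma-voom with sample quality weights gave it -0.79 with an adjusted p of 0.0411, short of the 2-fold change, and its adjusted p was 0.346 or more with edgeR when any 1 library was left out. mt-Atp6, which carries the proton path of ATP synthase, had 452, 323 and 313 RPKM in Trpm7R/R libraries, against 336, 774 and 528 RPKM in WT libraries (log2 fold change -0.56, SE 0.33).

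mt-Co1 had 359, 269.6 and 242 RPKM in Trpm7R/R libraries, against 286, 609 and 410.3 RPKM in WT libraries (log2 fold change -0.55, SE 0.34). mt-Co2 had 429, 304 and 261 RPKM in Trpm7R/R libraries, against 300.1, 688 and 479 RPKM in WT libraries (log2 fold change -0.53, SE 0.34). In both genes WT library 1 fell among the Trpm7R/R values. Further complex I genes lay nearer to the median of all genes. Log2 fold changes were -0.44 for mt-Nd3, -0.34 for mt-Nd1, -0.32 for mt-Nd2 and -0.32 for mt-Nd4, with SEs of 0.29 to 0.34. mt-Nd3 had 383, 345 and 291 RPKM in Trpm7R/R libraries, against 343, 613 and 463 RPKM in WT libraries. mt-Nd1 had 409, 345 and 309 RPKM in Trpm7R/R libraries, against 306, 605 and 469 RPKM in WT libraries. mt-Nd2 had 438, 366 and 314 RPKM in Trpm7R/R libraries, against 340.4, 606 and 487 RPKM in WT libraries. In all 3 genes Trpm7R/R library 4 lay above WT library 1 and below the other WT libraries. mt-Nd4 had 561, 460.2 and 396 RPKM in Trpm7R/R libraries, against 388, 759 and 664 RPKM in WT libraries.

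The fold changes nearest to 0 were those of mt-Rnr1, mt-Nd5, mt-Nd6, mt-Nd4l and mt-Cytb. mt-Nd5 had 603, 514 and 508 RPKM in Trpm7R/R libraries, against 376, 671 and 691 RPKM in WT libraries, and all 3 Trpm7R/R values lay between WT library 1 and the other WT libraries (log2 fold change -0.06, SE 0.34). mt-Nd6 had 625, 577 and 550.1 RPKM in Trpm7R/R libraries, against 440.1, 733 and 773 RPKM in WT libraries (log2 fold change -0.11, SE 0.31). mt-Nd4l had 476, 402 and 354 RPKM in Trpm7R/R libraries, against 289.7, 542 and 548 RPKM in WT libraries (log2 fold change -0.13, SE 0.31). By RPKM mt-Cytb was the most even of the 15 over the Trpm7R/R libraries, with 473, 471 and 466 RPKM, against 365, 691 and 622 RPKM in WT libraries. Its log2 fold change was -0.21 (SE 0.33). In normalized counts of the Trpm7R/R libraries mt-Nd5 was more even, at 18387 ± 536 against 10053 ± 819 for mt-Cytb (SD). The rRNA genes had unlike values, and the difference between them was not tested. mt-Rnr1 had 650.1, 618 and 701 RPKM in Trpm7R/R libraries, against 418, 786 and 851 RPKM in WT libraries (log2 fold change -0.02, SE 0.34). mt-Rnr2 had 576, 445 and 416 RPKM in Trpm7R/R libraries, against 481, 849 and 637 RPKM in WT libraries (log2 fold change -0.42, SE 0.33). The edgeR adjusted p was 1.00 for each of the 15 genes.

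**Figure D4:**
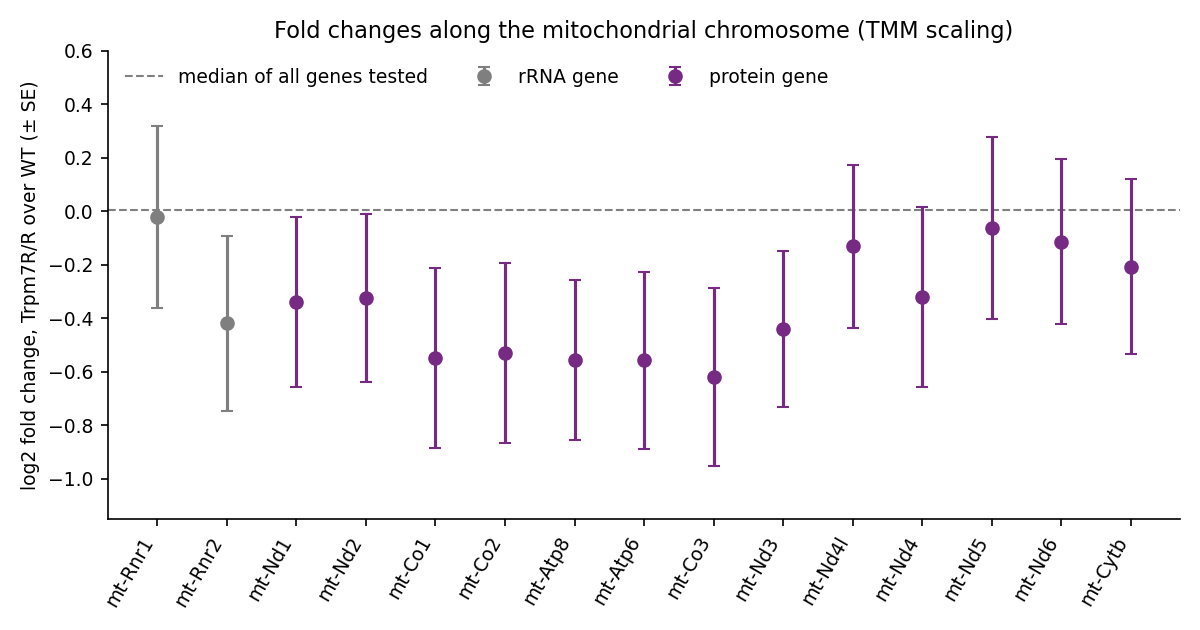
Log2 fold change of Trpm7R/R over WT (± SE, edgeR with TMM scaling) for the 15 protein and rRNA genes in chromosome order, with the median of all 11674 genes tested as a dashed line. Values ran from -0.62 in mt-Co3 to -0.02 in mt-Rnr1, all turned positive when scaled to ribosomal protein genes, and 0 of 15 passed the test.

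Ratios within a library need no scaling between libraries. mt-Nd5 took 15.8%, 16.1% and 16.8% of mitochondrial reads in Trpm7R/R libraries, against 13.4%, 12.4% and 15.3% in WT libraries, so every Trpm7R/R value was above every WT value. mt-Co3 took 5.29%, 5.02% and 5.07% in Trpm7R/R libraries, against 6.09%, 7.14% and 5.73% in WT libraries. mt-Atp8 took 0.721%, 0.640% and 0.583% in Trpm7R/R libraries, against 0.770%, 0.822% and 0.726% in WT libraries. In mt-Co3 and mt-Atp8 every Trpm7R/R value was below every WT value, and the shares of the other 12 of the 15 genes overlapped. The shares add up to a whole, so they depend on each other, and they were described only and not tested. In normalized counts, an unlike measure, 6.84% of all genes tested lay below and 3.64% above every WT library. The counts of genes without overlap thus have no like reference and are no result about these genes. The density of mt-Co1 relative to mt-Nd5 was 0.595, 0.525 and 0.477 in Trpm7R/R libraries, against 0.762, 0.907 and 0.594 in WT libraries. Trpm7R/R library 4 and WT library 3 were almost level. mt-Rnr1 relative to mt-Rnr2 stood at 1.13, 1.39 and 1.68 in Trpm7R/R libraries, against 0.869, 0.926 and 1.34 in WT libraries, and WT library 3 lay among the Trpm7R/R values.

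By complex, the 7 complex I genes took 61.1%, 62.2% and 61.6% of mitochondrial protein gene reads in Trpm7R/R libraries, against 58.3%, 54.7% and 60.05% in WT libraries, without overlap. The shares by complex add up to a whole, so they depend on each other, and they were not tested. The 3 complex IV genes took 22.4%, 20.2% and 19.9% in Trpm7R/R libraries, against 24.3%, 27.3% and 22.3% in WT libraries. For complex IV, Trpm7R/R library 4 and WT library 3 again lay close to each other. The 2 ATP synthase genes took 6.59%, 5.68% and 5.84% in Trpm7R/R libraries, against 6.80%, 7.85% and 6.53% in WT libraries, with an overlap. mt-Cytb, alone for complex III, took 9.96%, 11.9% and 12.7% in Trpm7R/R libraries, against 10.6%, 10.2% and 11.1% in WT libraries.

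tRNA genes were at the limit of what these libraries can show. They are 59 to 75 bases long, and the library preparation primes at poly(A) tails. Their densities therefore cannot be compared with those of the longer genes as RNA levels. Of the 22, 21 had at most 10 reads in every library, 12 had 0 reads in at least 1 library, and the highest count was 11. Reads per gene over all libraries ran from 4 in mt-Tw and mt-Td, the tRNA genes for tryptophan and aspartate, to 38 in mt-Tn (asparagine). By density mt-Tp (proline) was highest at 5.07 ± 2.28 RPKM (SD over 6 libraries), followed by mt-Tn at 4.79 ± 2.36 and mt-Tr (arginine) at 4.67 ± 2.32, which did not differ beyond their spread. mt-Tw and mt-Td were lowest at 0.557 ± 0.432 and 0.490 ± 0.860 RPKM. The highest and lowest are shown with the anticodon in capitals, found as the triplet in a 7-base loop whose stem pairs in 5 of 5 positions (3 of 5 in mt-Tw). mt-Tp (chrMT:15356-15422) and mt-Tn (chrMT:5089-5159) lie on the minus strand, and mt-Tr (chrMT:9808-9875), mt-Tw (chrMT:4950-5016) and mt-Td (chrMT:6942-7011) on the plus strand.
mt-Tp: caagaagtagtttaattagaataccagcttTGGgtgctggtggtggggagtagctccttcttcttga
mt-Tn: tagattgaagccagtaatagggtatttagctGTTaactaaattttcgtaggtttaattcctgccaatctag
mt-Tr: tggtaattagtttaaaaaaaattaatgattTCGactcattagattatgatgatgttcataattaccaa
mt-Tw: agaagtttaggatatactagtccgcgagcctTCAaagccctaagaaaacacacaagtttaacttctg
mt-Td: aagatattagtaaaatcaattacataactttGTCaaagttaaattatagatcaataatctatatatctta

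The median density was 2.39 RPKM over the 8 minus-strand tRNA genes and 1.90 RPKM over the 14 plus-strand ones. All tRNA genes together had 52, 42 and 58 reads in Trpm7R/R libraries 4, 6 and 8, against 58, 96 and 71 reads in WT libraries 1, 2 and 3. Per 1000000 mapped reads these are 3.02, 2.38 and 2.86 in Trpm7R/R libraries, against 3.08, 5.27 and 3.85 in WT libraries. Every Trpm7R/R library was below every WT library, at the smallest p this design allows (2-sided exact permutation p = 0.1, means 2.75 ± 0.331 in Trpm7R/R and 4.06 ± 1.11 in WT, SD, n = 3 each). Trpm7R/R library 4 and WT library 1 were nonetheless indistinguishable at this depth, with 95% Wilson intervals of 2.30 to 3.96 and 2.38 to 3.98 on that scale. These intervals cover counting error only. As a share of all exon reads the separation was lost, with 29.0, 26.4 and 38.9 tRNA gene reads per 1000000 exon reads in Trpm7R/R libraries, against 44.2, 63.6 and 33.2 in WT libraries (2-sided exact permutation p = 0.2). Without WT library 2 the difference per 1000000 mapped reads was -0.710, against -1.31 with all libraries. Reads were fewer in Trpm7R/R for 17 of the 22 genes, more for 2 and equal for 3, with 152 reads in Trpm7R/R libraries and 225 in WT libraries. By density 2 of the 22 lay below every WT library and 0 above. Of all genes tested, 6.84% lay below and 3.64% above in normalized counts, so the 2 are no result about tRNA genes. mt-Tq (glutamine) had 3, 3 and 1 reads in Trpm7R/R libraries and 4, 4 and 9 reads in WT libraries, and mt-Tt (threonine) had 1, 1 and 2 reads in Trpm7R/R libraries and 2, 3 and 3 reads in WT libraries. Both were named after their values were seen, and neither passed the filter for the test.

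Nuclear genes needed to copy, transcribe and process mitochondrial DNA and RNA were compared from a list of 70. Of these 36 could be tested, and edgeR called 0 of 36 (as did DESeq2 and limma-voom), with 0 at an unadjusted p under 0.05. Of all genes tested, edgeR called 0.0257% lower and 0% higher, and 4.57% were lower and 1.14% higher at that unadjusted p. The median log2 fold change of the handling genes was 0.02, and 16 of 36 were negative with TMM scaling. None of the 36 lay below every WT library (6.84% of all genes did) or above every WT library (3.64% did). Ribosomal scaling moved that median to 1.33, close to the 1.34 of all genes. The smallest p belonged to Rrm2b, a ribonucleotide reductase subunit that supplies nucleotides for mitochondrial DNA, with 12, 14 and 24 reads in Trpm7R/R libraries and 35, 20 and 24 reads in WT libraries (log2 fold change -0.62, SE 0.41). Trnt1, which adds the terminal CCA to tRNAs, had 10, 9 and 12 reads in Trpm7R/R libraries and 28, 19 and 6 reads in WT libraries (log2 fold change -0.72, SE 0.53). Polg, the mitochondrial DNA polymerase, had 101, 28 and 24 reads in Trpm7R/R libraries and 28, 44 and 34 reads in WT libraries (log2 fold change 0.56, SE 0.48). Trpm7R/R library 4 held the highest Polg count, and the other 5 libraries lay between 24 and 44 reads. Slirp, an RNA-binding protein that stabilises mitochondrial mRNAs, had 17, 16 and 10 reads in Trpm7R/R libraries and 18, 28 and 14 reads in WT libraries (log2 fold change -0.42, SE 0.43).

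Most nuclear subunits of the respiratory complexes had a negative log2 fold change with TMM scaling, with a median 1.42 below that of all genes. With ribosomal scaling the median was 0.01 where that of all genes was 1.34, so that it lay 1.33 below. Of 77 listed genes found in the files 46 could be tested, and with TMM scaling 43 had a negative log2 fold change and 32 an unadjusted p under 0.05 on the lower side (69.6%, against 4.57% of all genes tested). edgeR's quasi-likelihood test called 0 of 46, the lowest adjusted p being 0.0585, whereas DESeq2 called 5, edgeR's exact test 12, and its likelihood ratio test and limma-voom 13 each. Without Trpm7R/R library 4, the quasi-likelihood test called 9. With all libraries that test called 0.0257% of all genes tested lower. The share of all genes called in the other fits is not given here, so their counts have no reference. The genotypes did not overlap, with Trpm7R/R lower, in 29 of 46 (6.84% of all genes tested). The median was -1.41 with exon reads and -0.55 when intron reads were added. This list was chosen with its direction in these libraries known and is no independent evidence of it.

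Among the members with the smallest p, Atp5c1, the central stalk subunit of ATP synthase, had 15, 11 and 13 reads in Trpm7R/R libraries, against 52, 52 and 39 reads in WT libraries. Its log2 fold change was -1.82 (SE 0.36, edgeR adjusted p = 0.0585). Ndufb11, an accessory subunit of complex I, had 1, 1 and 6 reads in Trpm7R/R libraries, against 34, 25 and 16 reads in WT libraries (log2 fold change -3.14, SE 0.62, edgeR adjusted p = 0.0592). In both genes the genotypes did not overlap. Uqcrh, the hinge protein of complex III, had 4, 6 and 8 reads in Trpm7R/R libraries, against 39, 33 and 16 reads in WT libraries (log2 fold change -2.22, SE 0.49). Ndufc1, a small accessory subunit of complex I, had 4, 5 and 7 reads in Trpm7R/R libraries, against 30, 29 and 16 reads in WT libraries (log2 fold change -2.16, SE 0.47). The edgeR adjusted p was 0.0978 for both.

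**Figure D5:**
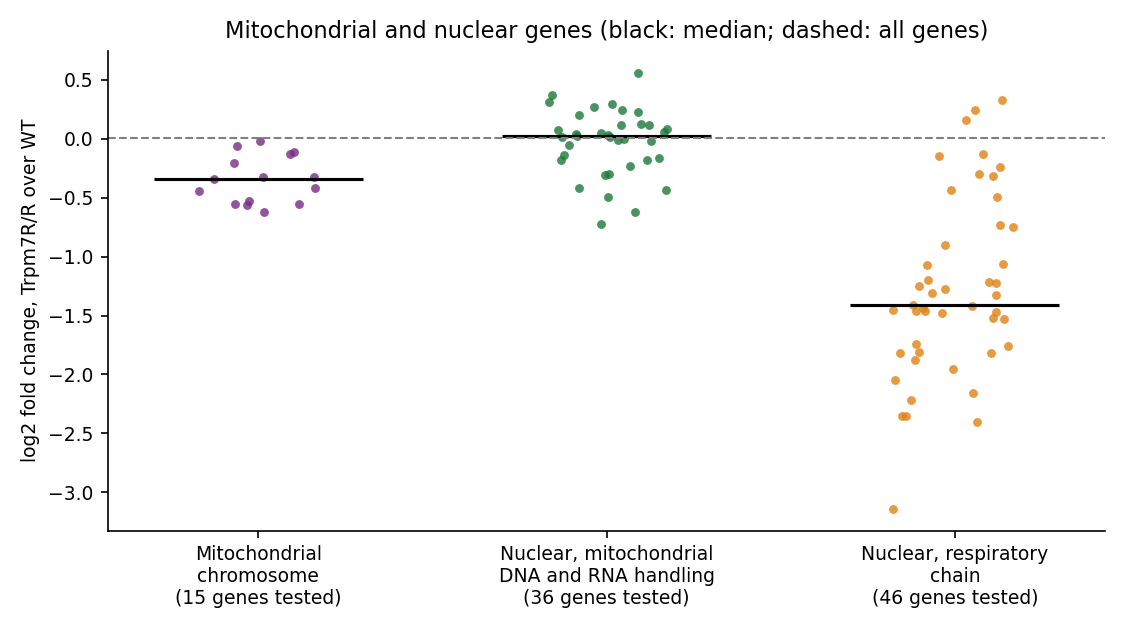
Log2 fold change of Trpm7R/R over WT (edgeR with TMM scaling) for the 15 mitochondrial genes tested, 36 nuclear genes of mitochondrial DNA and RNA handling and 46 nuclear respiratory chain genes, with 1 point per gene, medians in black and the median of all genes dashed. The medians were -0.34 for the 13 mitochondrial protein genes, 0.02 for handling genes and -1.41 for respiratory chain genes, against 0.01 over all genes, and with ribosomal scaling they were 1.03, 1.33 and 0.01, against 1.34 over all genes.

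Set against each other within a library, mitochondrial protein gene reads numbered 108, 141 and 99.7 per exon read of nuclear respiratory chain genes in Trpm7R/R libraries 4, 6 and 8, against 38.8, 70.1 and 88.2 in WT libraries 1, 2 and 3. Every Trpm7R/R library was above every WT library. The means were 116 ± 21.7 in Trpm7R/R and 65.7 ± 25.02 in WT (SD, n = 3 each), a ratio of 1.77 at the smallest p that 3 against 3 allows (2-sided exact permutation p = 0.1). The nuclear list below the line was chosen with its lower level in Trpm7R/R known, so this p is no independent evidence. The order was lost with exon and intron reads together, where the ratio was 22.9, 24.9 and 20.4 in Trpm7R/R libraries, against 15.3, 28.1 and 26.1 in WT libraries. The numerator alone overlapped between genotypes (exact permutation p = 0.4, above). The denominator was 0.00504%, 0.00322% and 0.00421% of mapped reads in Trpm7R/R libraries, against 0.0102%, 0.0111% and 0.00728% in WT libraries. Per exon junction read of all named nuclear protein genes, mitochondrial protein gene reads numbered 10.98, 13.6 and 8.54 in Trpm7R/R libraries, against 2.53, 4.03 and 7.16 in WT libraries. The ratio thus stood apart in the same way against nuclear junction reads at large, and it is not shown to be particular to the respiratory chain.

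The exon read ratio was also taken by complex. For complex I it was 158, 196 and 136 in Trpm7R/R libraries, against 59.5, 98.9 and 124 in WT libraries. For ATP synthase it was 24.4, 29.1 and 22.2 in Trpm7R/R libraries, against 8.48, 16.3 and 19.2 in WT libraries. Neither overlapped between genotypes, but both denominators come from the list chosen with its direction known, and these ratios were not tested. For complex IV the ratio was 165, 186 and 126 in Trpm7R/R libraries, against 60.9, 138 and 126 in WT libraries, and for complex III with cytochrome c it was 91.3, 166 and 127 in Trpm7R/R libraries, against 32.6, 60.2 and 102 in WT libraries. Those for complexes III and IV overlapped. Complex II, which has no mitochondrial gene, had 25, 15 and 26 nuclear exon reads in Trpm7R/R libraries and 55, 35 and 27 in WT libraries over its 4 genes.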

How the data were processed

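RNA of isolated islets from 3 Trpm7R/R and 3 WT mice on an HFD was sequenced, per the labels, after low-input library preparation, which primes at poly(A) tails. For each library the authors deposited raw read counts per gene in exons, introns and across exon junctions, as total and as uniquely mapped reads, together with exon length. In the deposited RPKM values exon reads are divided by exon length and by the mapped reads of the library, and in the deposited TPM values these densities are brought to 1 sum per library. The number of mapped reads was recovered from the deposited counts and RPKM. The submitters' processing notes name build mm10. The sources used here do not give the aligner, the counting tool or its use of strand. The authors' comparison tables hold fold changes and p-values and were not used.

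Exon read counts were fitted with edgeR 4.0.16 in R 4.3.3 over all genes (TMM scaling, filterByExpr with a minimum count of 10, 11674 genes, Benjamini-Hochberg adjustment). Genes with a 2-fold or larger change whose adjusted p did not exceed 0.05 were called, as in the study. Single values were compared with 2-sided exact permutation tests over libraries. Alternatives used DESeq2 1.42.0, limma 3.58.1, other scalings, filters and read classes, and left out each library. The ratio of mitochondrial reads to exon junction reads of nuclear genes was an alternative chosen after seeing the data. The pipeline was tested on simulated data. All protein and rRNA genes are named, tRNA genes at the ends of their order, and the 4 members of each nuclear list with the smallest p. Members and lists were chosen with earlier results of these data known. Libraries of a genotype were compared and differed by more than sampling noise. Python 3.11.15 was used with scipy 1.17.1 for the tests, numpy 2.4.6 and pandas 2.3.3 for tables, and matplotlib 3.10.9 for plots.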

Additional observations from a re-analysis of the deposited data

How the results depend on the processing

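No mitochondrial gene was called under any alternative except scaling to ribosomal protein genes, which called 4 (mt-Rnr1, mt-Nd4l, mt-Nd5 and mt-Nd6) and moved the median of all genes to 1.34. Under it the median of the protein genes was 1.03, and log2 fold changes were 1.30 for mt-Rnr1, 0.95 for mt-Rnr2, 1.03 for mt-Nd1, 1.04 for mt-Nd2, 0.84 for mt-Co1, 0.86 for mt-Co2, 0.82 for mt-Atp8, 0.83 for mt-Atp6, 0.78 for mt-Co3, 0.94 for mt-Nd3, 1.19 for mt-Nd4l, 1.03 for mt-Nd4, 1.26 for mt-Nd5, 1.205 for mt-Nd6 and 1.14 for mt-Cytb. The handling genes had a median of 1.33 with 22 called, and the respiratory chain genes a median of 0.0070 with 6 called. Under this scaling edgeR gave mt-Rnr1 an unadjusted p of 0.0158 and an adjusted p of 0.0328. Low p-values were thus common among all genes, and these counts of calls are no result about the genes called. Without a filter on low counts mt-Rnr1 was at 0.088 and mt-Nd5 at 0.036, and 8 respiratory chain genes were called. That list had 1 call when scaled to exon read totals, to mapped reads or filtered at a count of 20, 5 with DESeq2, 12 with the exact test, and 13 with the likelihood ratio test or limma-voom. With exon and intron reads together its median was -0.55, and the difference in the ratio of mitochondrial to nuclear reads was -0.459, against 50.4 for exon reads alone. The cause of these shifts was not tested, and the shares of all genes called under these alternatives are not given here.

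Leaving out each library gave between 0 and 9 calls in the respiratory chain list and 0 among mitochondrial genes. The shares of all genes called in these fits are not given here, so the calls in that list have no reference. Over these fits log2 fold changes ran from -0.21 to 0.20 for mt-Rnr1, from -0.31 to 0.051 for mt-Nd4l, from -0.23 to 0.12 for mt-Nd5 and from -0.26 to 0.068 for mt-Nd6, while the other 11 genes stayed negative. The difference in tRNA share per 1000000 mapped reads ran from -1.80 to -0.710 and that in protein gene share from -0.236 to -0.0460 percentage points, both smallest without WT library 2. As a share of all exon reads the tRNA genes overlapped (exact permutation p = 0.2). The median of the protein genes ran from -0.50 to -0.11, and the difference in the exon read ratio from 36.9 to 61.6. No paired analysis was possible because the genotypes share no replicate numbers. With 3 libraries per genotype a permutation test cannot go below p = 0.1, and tRNA counts of at most 11 reads limit any statement on single tRNA genes.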
